A study of Homo sapiens with 6 samples.

Results

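The Sm, LSm and SMN complex genes build the protein rings of spliceosomal small nuclear ribonucleoproteins (snRNPs), bind the U6 RNA or messenger RNA under decay, or load the rings onto RNA. They were taken by symbol: every gene beginning with SNRP or SNRNP, LSM or GEMIN followed by a number, SMN1 and SMNDC1. This gave 39 genes of 18133 measured, 38 from probe sets with 1 gene symbol and SMN1 from probe sets it shares with its near copy SMN2. SNRPN and LSM8 had only probe sets shared with SNURF and NAA38 and were kept out of the counts. Within the 39, SNRPB, SNRPD1, SNRPD3 and LSM4, known substrates of PRMT5, were set against the other 35.

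The study hybridised 6 Affymetrix arrays with RNA of NCI-H929 cells, as labelled, which derive from human multiple myeloma. For 3 arrays, called PRMT5_down, the lentivirus was to reduce PRMT5. The other 3 are labelled as carrying a control lentivirus. The titles call the constructs sponges, while the treatment protocol describes a pLKO.1 short hairpin RNA virus made in 293T cells and sets it against normal NCI-H929. The protocol adds that cells positive for the virus were selected with 1 μg/mL puromycin and that both kinds were collected at one timepoint. Separate cultures are not mentioned for the replicates, so each p-value covers only array-to-array spread, possibly technical. The number of arrays limits the precision.

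PRMT5, with its partner WDR77, places symmetric dimethyl groups on arginines in the arginine- and glycine-rich tails of SNRPB, SNRPD1, SNRPD3 and LSM4. The Tudor domain of SMN binds these methylated tails. The SMN complex, made of SMN and the GEMIN proteins, then closes the ring of Sm proteins around the small nuclear RNA in the cytoplasm. The arrays measured messenger RNA, and neither protein nor methylation.

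PRMT5, the gene the virus was aimed at, had log2 signals of 9.93, 10.35 and 10.30 in the controls, listed here and below as replicates 1, 2 and 3. The PRMT5_down arrays read 8.63, 9.65 and 9.37. All 3 PRMT5_down values lay below all controls. The mean difference, PRMT5_down minus control, was -0.98 (SE 0.28) on the log2 scale, with p = 0.1 in a two-sided exact permutation test, which cannot go lower with 3 arrays per group. It did not pass limma over all genes (adjusted p = 1). With the replicate number as a block, limma gave PRMT5 an unadjusted p of 3.8e-05 and an adjusted p of 0.21. The label was checked against markers of plasma cells, of which only 3 of 10 were above the background of olfactory receptor genes (4.89 to 5.01) on all 6 arrays and 6 on none. IRF4, CD38, TNFRSF17, MZB1 and POU2AF1, which define plasma cells, had mean signals of 2.47 to 3.20, under background on every array. XBP1, a factor of secretory cells, stood at a mean of 10.43. NSD2 and FGFR3, activated by a translocation known in this line, stood at 9.05 and 8.63. All 3 were above background on all 6 arrays, which by itself shows neither the translocation nor the line. All 6 erythroid markers measured by a probe set of their own were above background on all 6 arrays. ALAS2 had a mean of 10.18 and GATA1 one of 10.19. The 6 markers were higher in PRMT5_down, from 0.14 to 1.58 (AHSP), none passing limma. Probe sets shared by the fetal globin genes HBG1 and HBG2 had means from 12.12 to 13.41, each above background on all 6 arrays. Of 3 megakaryocyte markers 2 were above background on all arrays, ITGA2B at -0.087 and GP9 at -0.14. The 3 plasma cell markers above it, PRDM1, SDC1 and XBP1, differed by -0.020, -0.24 and -0.057, again with none passing. The plasma cell markers above background on no array and the erythroid markers above it on all 6 go against the myeloma label. Which cells gave the RNA, and what that means for the results below, was not tested. In RNA from many cells, fewer cells of a type and less RNA per cell cannot be told apart.

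Of the 39 genes 38 were above background on all 6 arrays, as were 10216 of all 18133 genes. The exception was SNRPD2P2, a pseudogene of SNRPD2, above it on 1. Closest to background among the 38 were GEMIN8 and LSM11, both at a mean of 5.95. Brightness is not comparable between probe sets, so signals are set against background only.

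None of the 39 genes passed limma between PRMT5_down and control, as over all genes (0%). At an unadjusted limma p under 0.05 there were 0 members, against 0.822% of all genes. The groups overlapped for each of the 39, where 3.92% of all genes had groups that did not. In mean difference 20 members were higher and 19 lower, and 43.3% of all genes were higher. The median over the members was 0.013, with a range from -0.27 (SNRPA) to 0.26 (SMNDC1). Over all genes it was -0.017.

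**Figure D1:**
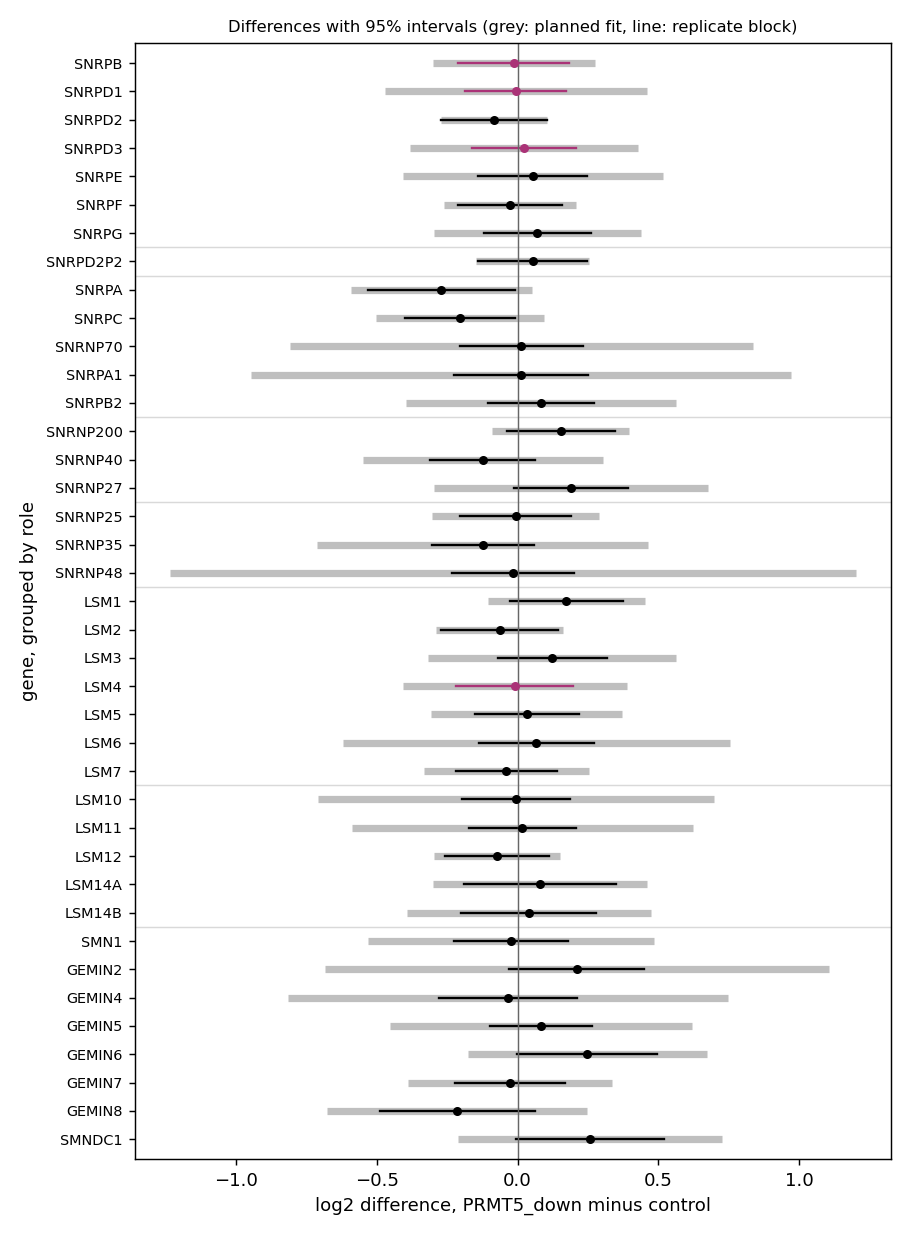
Log2 difference, PRMT5_down minus control (horizontal axis), for the 39 genes grouped by role (vertical axis), from 3 arrays per group. Dots are mean differences, grey bars the 95% intervals of the limma fit as planned and lines those of the fit with the replicate number as a block, with the 4 substrates in purple. Every grey bar crosses 0, and the lines of SNRPA and SNRPC end just below it.

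The 4 substrates had almost the same signal with and without PRMT5 lowering. SNRPB, which encodes the Sm proteins B and B', gave 11.74, 11.57 and 11.93 in controls and 11.79, 11.63 and 11.78 in PRMT5_down. SNRPD1, the Sm protein D1, gave 10.59, 10.19 and 10.09 in controls and 10.59, 10.17 and 10.09 in PRMT5_down. For both genes the groups overlapped, and for SNRPD1 the arrays of one number differed by no more than 0.020. SNRPD3, the Sm protein D3, read 9.64, 10.13 and 9.80 in controls and 9.68, 10.08 and 9.88 in PRMT5_down. LSM4, the LSm protein with a long arginine- and glycine-rich tail, read 11.27, 10.79 and 11.20 in controls and 11.27, 10.93 and 11.03 in PRMT5_down. These groups overlapped too, and in all 4 genes the spread between replicate numbers, 0.26 to 0.50, was larger than the difference between groups.

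The mean differences were -0.013 (SE 0.12) for SNRPB, -0.0067 (SE 0.19) for SNRPD1, 0.023 (SE 0.17) for SNRPD3 and -0.010 (SE 0.16) for LSM4. Each had a limma adjusted p of 1. Their 95% intervals lay within -0.47 and 0.46 as planned and within -0.22 and 0.21 with the replicate block. Changes inside these intervals remain possible in either direction. The intervals are not limits of detection. The difference of PRMT5 itself, -0.98, is outside them and did not pass limma either. On the brightest probe set of each gene, the median absolute difference was 0.012 for the 4 substrates. It was 0.070 for the other 35 members and 0.080 over all genes. With 4 genes chosen by name this is a description. In sign, 1 substrate was higher and 3 lower, against 19 and 16 of the rest.

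**Figure D2:**
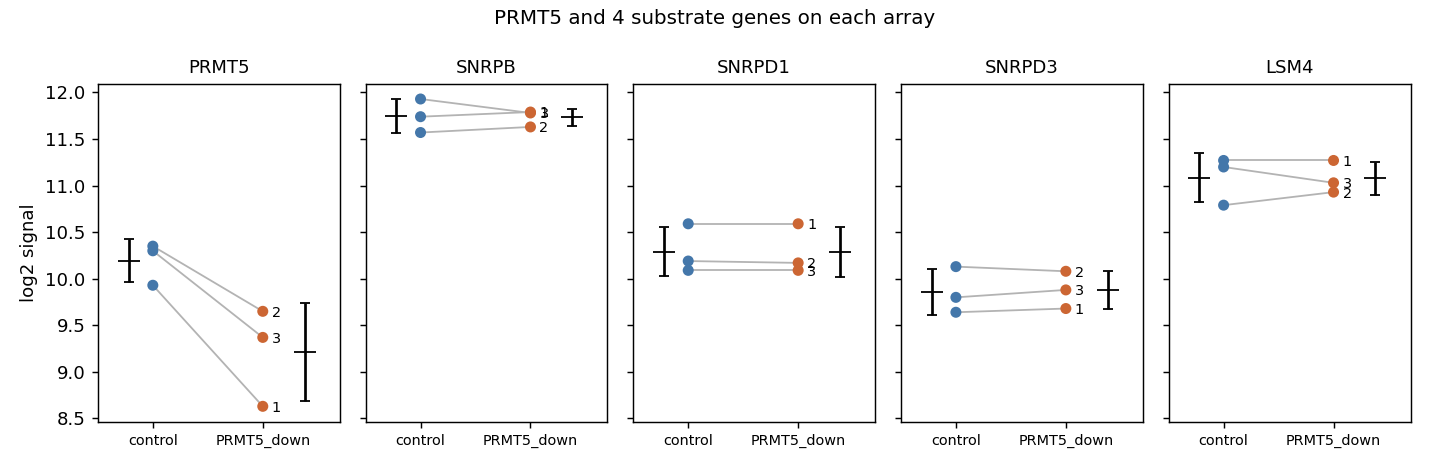
Log2 signal (vertical axis) of PRMT5 and the 4 substrate genes on each array, control in blue and PRMT5_down in orange, with lines joining arrays of the same replicate number and black marks for the mean ± SD of 3 arrays. PRMT5 is lower at the right end of each line, at 8.63 against 9.93 in number 1, while the lines of the substrates change by at most 0.17 (LSM4, number 3).

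For SNRPB and SNRPD1, the other probe sets above background differed more between groups than the brightest, used above. All 7 SNRPB probe sets above background on 6 arrays had differences from -0.11 to -0.013, and the 3 of LSM4 from -0.020 to -0.010. SNRPD1 had 3, at -0.0067, 0.083 and 0.093, the last with 8.69, 7.98 and 8.01 in controls and 8.72, 7.98 and 8.26 in PRMT5_down. SNRPD3 had 1, since its second probe set was under background on every array. None of these probe sets had groups that did not overlap, where 3.89% of all probe sets of named genes did.

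The other 4 Sm core genes were SNRPD2, SNRPE, SNRPF and SNRPG, which encode the ring members D2, E, F and G. SNRPG read 12.41, 12.25 and 12.01 in controls and 12.52, 12.22 and 12.14 in PRMT5_down, a difference of 0.070 (SE 0.15). SNRPD2 varied least between replicate numbers, with controls from 12.06 to 12.14 and PRMT5_down arrays from 11.97 to 12.07 (difference -0.083, SE 0.077). SNRPE differed by 0.053 and SNRPF by -0.027. The Sm core as a whole thus had 3 genes higher and 4 lower, with a median of -0.0067 and none called by limma.

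A sequence feature that the choice by symbol did not use is shown for the Sm core genes. In RefSeq windows of GRCh38.p14 from 250 bases before to 50 after the gene start, found for 32 of the 39 genes, 9 motifs were searched on both strands. CCGGAAG, a binding sequence of ETS transcription factors, lay in at least 1 window of 12 of the 32 genes (37.5%). The share was 12.2% over all genes and 16.5% over protein-coding genes. By window CCGGAAG lay in 15 of 41 (36.6%) and in 10.3% of all windows of that length, and the windows of SNRPG overlap each other. These bases before the start of 4 Sm core genes carry it, with the match in capitals, reading CTTCCGG where it is on the other strand.
SNRPB: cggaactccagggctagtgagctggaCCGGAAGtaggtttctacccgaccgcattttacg
SNRPD2: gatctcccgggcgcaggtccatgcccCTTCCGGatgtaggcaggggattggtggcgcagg
SNRPE: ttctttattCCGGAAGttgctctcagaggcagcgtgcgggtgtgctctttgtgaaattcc
SNRPG: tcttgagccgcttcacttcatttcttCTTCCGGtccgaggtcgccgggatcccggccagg
They lie at chr20:2470797-2470856 on the minus strand, chr19:45692346-45692405 on the minus strand, chr1:203861597-203861656 on the plus strand and chr2:70293475-70293534 on the minus strand. The match starts 41, 63, 241 and 50 bases before the gene start.

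The remaining motifs are given as shares of the 32 members, of all genes and of protein-coding genes. They were CACGTG (12.5%, 8.77% and 10.9%), CCAAT (43.8%, 39.7% and 42.1%), TATAAA (3.12%, 14% and 12.4%) and TGCGCA (18.8%, 9.76% and 12.7%). The others were ACTACAA (6.25%, 3.43% and 3.81%), GGGCGG (68.8%, 48.3% and 64.3%), the NRF1 palindrome (6.25%, 1.52% and 1.99%) and the ZBTB33 palindrome (6.25%, 0.505% and 0.726%). CCGGAAG was singled out after these shares were seen. A match is only a match of letters, and the arrays hold no measure of binding.

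Among the proteins particular to U1, the snRNP that recognises the 5′ splice site, SNRPA and SNRPC had the smallest p of all lower members, and neither passed. SNRPA, the U1 A protein, read 10.03, 9.92 and 10.20 in controls and 9.59, 9.97 and 9.78 in PRMT5_down. Replicate 2 of PRMT5_down lay inside the control range and the others below it. The means were 10.05 ± 0.14 and 9.78 ± 0.19 (SD, n = 3 each), and they differed by -0.27 (SE 0.13, limma adjusted p = 1), with -0.44, 0.050 and -0.42 in replicate numbers 1, 2 and 3. SNRPC, the U1 C protein, read 11.91, 11.92 and 11.76 in controls and 11.83, 11.70 and 11.45 in PRMT5_down. Only PRMT5_down replicate 1 lay within the controls, and each number had the lower value in PRMT5_down. The means were 11.86 ± 0.09 and 11.66 ± 0.19 (SD, n = 3 each), a difference of -0.20 (SE 0.12, limma adjusted p = 1). The fit with the replicate block gave SNRPA an unadjusted p of 0.043 and SNRPC one of 0.044 in limma (adjusted p = 0.60 for each). They were 2 of 39 members there, where 8.25% of all genes had such a p.

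The other probe sets of both genes ran the same way. The 4 of SNRPA differed by -0.33 to -0.26 and the 4 of SNRPC by -0.27 to -0.20. Of the SNRPC probe sets 3 had all PRMT5_down arrays below all controls, for example 11.46, 11.48 and 11.35 in controls against 11.33, 11.22 and 11.06, while the one used here, the brightest, did not. Over all probe sets of named genes 2.39% lay wholly lower. Probe sets of a gene read the same RNA and are not replicates.

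SNRNP70, the third protein particular to U1, stood at 9.33, 10.34 and 9.90 in controls and 9.31, 10.19 and 10.11 in PRMT5_down. Its difference of 0.013 (SE 0.34) sat beside a gap of 0.95 between the means of replicate numbers 1 and 2. SNRPA1 and SNRPB2, the U2 A′ and B″ proteins, differed by 0.013 and 0.083, and the 3 probe sets of SNRPA1 lay on both sides of 0 (-0.17 to 0.057).

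Of the U5 and tri-snRNP proteins, SNRNP200, the helicase that unwinds U4 from U6, had the smallest p of all higher members. It read 9.99, 10.18 and 9.92 in controls and 10.12, 10.25 and 10.18 in PRMT5_down, and only PRMT5_down replicate 2 exceeded the highest control, which replicate 3 equalled. The difference was 0.15 (SE 0.10, limma adjusted p = 1), and its 5 probe sets above background on 6 arrays gave 0.11 to 0.16. SNRNP27, a tri-snRNP protein, differed by 0.19 (SE 0.20) and SNRNP40, a U5 protein, by -0.12 (SE 0.17). All 3 of these genes kept one direction in the 3 replicate numbers, as 10 of the 39 members and 26.9% of all genes did.

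The minor spliceosome, which removes a rare class of introns, has the proteins SNRNP25, SNRNP35 and SNRNP48. They differed by -0.0067, -0.12 and -0.017, all with limma adjusted p = 1. SNRNP48 showed the widest spread of all members, with 7.30, 7.53 and 6.13 in controls and 7.46, 7.33 and 6.12 in PRMT5_down, so that the mean of number 3 stood 1.31 below that of number 2. SNRNP35 had 1 probe set above background, with 7.41, 6.85 and 7.42 in controls and 7.32, 6.68 and 7.31 in PRMT5_down.

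LSM1 to LSM7 make up a cytoplasmic ring that binds messenger RNA at the start of decay, and LSM8 replaces LSM1 in the nuclear ring on U6 RNA. LSM1 was the second of the higher members by p, with 8.39, 8.44 and 8.19 in controls and 8.67, 8.46 and 8.41 in PRMT5_down. Its difference was 0.17 (SE 0.11, limma adjusted p = 1), and PRMT5_down replicate 3 lay inside the control range. LSM3 differed by 0.12 on the probe set used and by 0.12 to 0.15 over its 4. The remaining ring genes LSM2, LSM5, LSM6 and LSM7 lay between -0.063 and 0.067. Over LSM1 to LSM7, 4 were higher and 3 lower, with a median of 0.033. The brighter probe set shared by LSM8 and NAA38 read 10.92, 10.30 and 10.49 in controls and 10.92, 10.30 and 10.36 in PRMT5_down. It differed by -0.043, with the groups overlapping. The one probe set shared by SNRPN, a tissue-restricted relative of SNRPB, and SNURF that was above background read 5.72, 5.76 and 5.78 in controls and 5.89, 5.86 and 5.93 in PRMT5_down. It lay wholly higher, by 0.14, and was not tested, where 3.89% of all probe sets of named genes had groups that did not overlap. The other 2 probe sets of this pair were under background on every array.

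LSM10 and LSM11 take the place of D1 and D2 in the ring of the U7 snRNP, which processes histone messenger RNA. They differed by -0.0067 and 0.017, and LSM10 was higher in number 3, at 10.47 and 10.51, than in the others, at 9.67 to 9.84. LSM12, LSM14A and LSM14B, which have LSm domains outside these rings, differed by -0.073, 0.080 and 0.040. For LSM14A the PRMT5_down arrays lay between 9.49 and 9.51 and the controls between 9.09 and 9.65.

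In the SMN complex, 4 of 8 genes counted with SMNDC1 were higher and 4 lower. SMN, measured jointly for SMN1 and SMN2, read 8.83, 8.64 and 8.16 in controls and 8.76, 8.51 and 8.29 in PRMT5_down, a difference of -0.023 (SE 0.21). Its protein carries the Tudor domain that binds the methylated tails, and its groups overlapped. GEMIN6 was the third of the higher members, with 8.02, 7.79 and 7.89 in controls and 8.25, 7.79 and 8.40 in PRMT5_down (difference 0.25, SE 0.17, limma adjusted p = 1). GEMIN8 was the third of the lower ones, with 5.77, 6.07 and 6.32 in controls and 5.63, 6.12 and 5.77 in PRMT5_down (difference -0.21, SE 0.19, limma adjusted p = 1). For both, number 2 hardly differed and number 3 differed most, by 0.51 and -0.55. GEMIN2, the direct partner of SMN that holds the open ring, differed by 0.21 (SE 0.37). GEMIN4, GEMIN5, which recognises the small nuclear RNA, and GEMIN7 differed by -0.033, 0.083 and -0.027. The dimmer probe set of GEMIN5, also above background on all 6 arrays, differed by 0.29. By replicate number it gave 0.32, 0.28 and 0.27, with the groups overlapping, and it was not tested on its own.

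SMNDC1, a splicing factor with a Tudor domain like that of SMN, had the largest difference among the higher members, 0.26 (SE 0.19, limma adjusted p = 1). It read 9.47, 9.73 and 9.0 in controls and 9.68, 9.73 and 9.56 in PRMT5_down, and its 4 probe sets gave 0.23 to 0.34. By replicate number the differences were 0.21, 0.00 and 0.56, so the low control of number 3 carries most of it. Without control replicate 3 the value was 0.057.

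**Figure D3:**
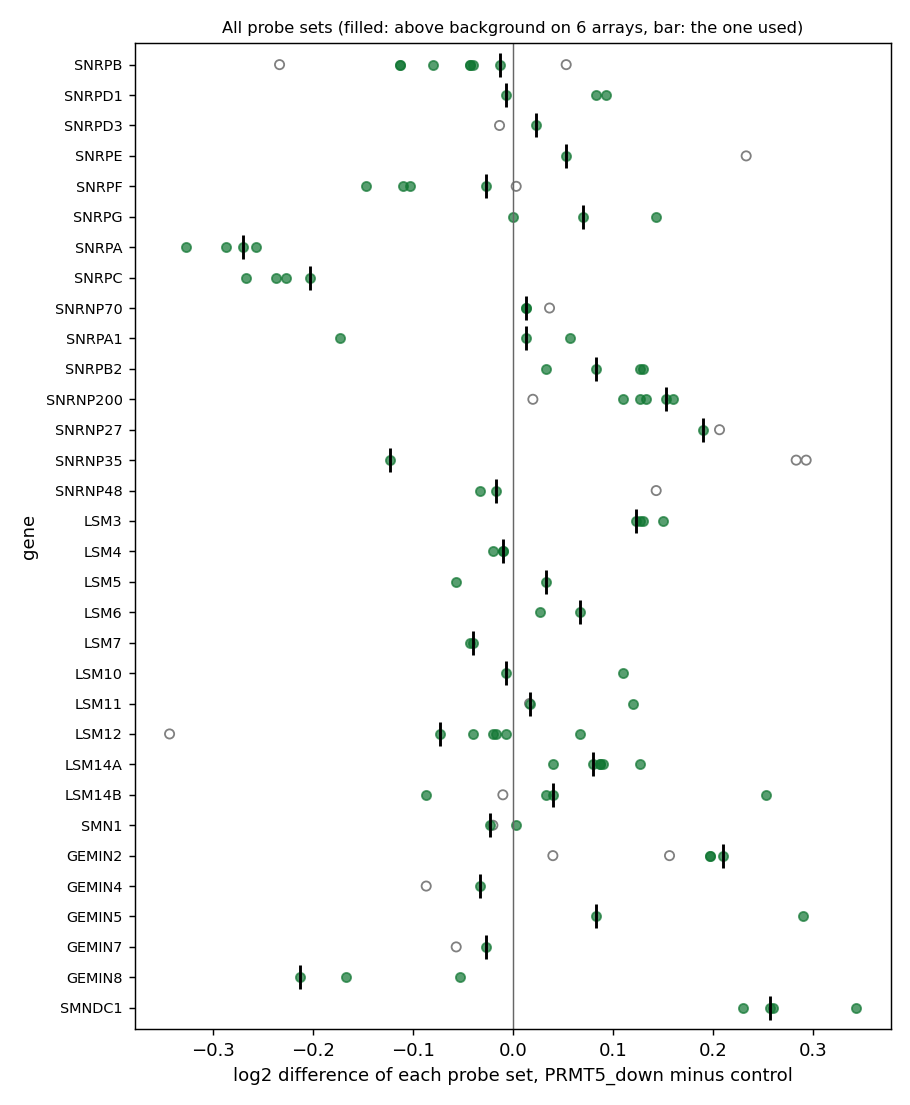
Log2 difference, PRMT5_down minus control (horizontal axis), of each probe set of the 32 members with more than 1 (vertical axis). Filled dots are probe sets above background on all 6 arrays, open ones the rest, and the black bar is the brightest, used elsewhere. Among the members wholly to one side of 0 are SNRPA, SNRPC and the substrate LSM4 on the left and SMNDC1, GEMIN2 and LSM3 on the right. In 7 members filled dots lie on both sides of it.

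Of the 39 members, 32 had more than 1 probe set. Of all 120 probe sets of the members, 2 lay wholly higher in PRMT5_down (SNRNP35) and 4 wholly lower (3 of SNRPC and 1 of LSM12), beside the 3.89% of all probe sets of named genes. Those of SNRNP35 and LSM12 were above background on no array, which leaves the 3 of SNRPC. In 7 members probe sets above background on all arrays differed in sign, namely LSM5, LSM10, LSM12, LSM14B, SMN1, SNRPA1 and SNRPD1. Array names mark probe sets that can match more than one gene with the suffixes s and x, carried by the probe sets used for 10 and 11 members. Among them are SNRPD1, SNRPG, SNRPE and SNRPF, so signal from copies of these genes is not separated here.

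The signals of these genes ranged more over replicate numbers than they differed between groups. The mean signal of a number ranged over a median of 0.43 log2 units across the 39 members, against a median absolute group difference of 0.063. Over all genes these values were 0.28 and 0.080. A range over numbers and a difference between groups are unlike measures, and the range runs larger even without an effect of number. The range over numbers exceeded the group difference in 37 of 39 members and in 89.3% of all genes, the exceptions being SNRPD2 and SNRPA. Number 3 was lowest for 22 members (56.4%), among them SNRPE, SNRPG, LSM3, LSM6, GEMIN2 and SNRPA1, against 27.6% of all genes. It was highest for 9 members (23.1%) and for 46.1% of all genes. Number 1 was lowest for 10 (25.6%, against 41.1% of all genes), such as SNRPD3, SNRNP70 and GEMIN4. GEMIN2 read 7.80, 7.62 and 6.66 in controls and 8.02, 7.59 and 7.10 in PRMT5_down, and GEMIN4 ran the other way with 7.57, 7.92 and 8.26 against 7.25, 8.05 and 8.35.

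**Figure D4:**
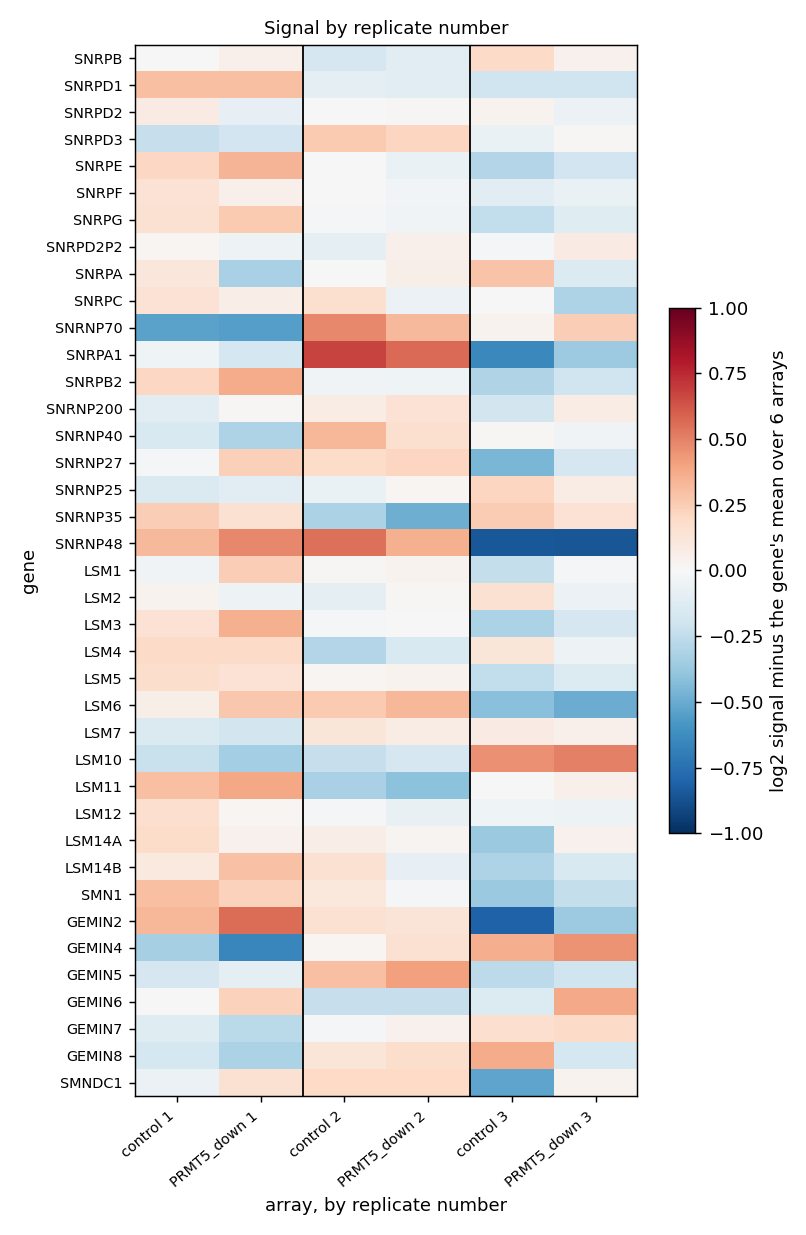
Signal of the 39 genes (rows) on the 6 arrays (columns, by replicate number), as log2 signal minus the gene's own mean, red above and blue below it. Both arrays of a number share a colour for most genes, as in SNRNP48, where number 3 read 6.13 and 6.12 and the other arrays 7.30 to 7.53.

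Partner genes of these complexes were counted in the same fit, and none passed limma. Of 7 genes of PRMT5 with its cofactors and related enzymes 3 were higher and 4 lower. Beside PRMT5 the smallest p belonged to RIOK1, an adaptor of PRMT5, at 0.21 (SE 0.18). Of 14 genes of snRNP assembly and transport 12 were higher, where 43.3% of all genes were, with a median of 0.042. By replicate number 7, 8 and 11 were higher, with medians of 0.00, 0.015 and 0.24. PHAX, the export adaptor of small nuclear RNA, differed by 0.34 (SE 0.18), with 6.22, 6.37 and 5.71 in controls and 6.38, 6.38 and 6.55 in PRMT5_down. Its groups did not overlap, with 6.37 as the highest control and 6.38 as the lowest PRMT5_down signal, and the difference was 0.84 in number 3 and 0.010 in number 2. DDX20, the helicase also called Gemin3, differed by 0.21 (SE 0.19).

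Of 8 partners of LSM1 to LSM7 in messenger RNA decay 4 were higher and 4 lower, with the decapping cofactor DCP1B at -0.17 (SE 0.17) and the exonuclease XRN1 at 0.25 (SE 0.45). Of 11 U6 and U4/U6 partners 7 were higher, with the U5 scaffold PRPF8 at 0.16 (SE 0.13) and the U4/U6 protein PRPF3 at 0.26 (SE 0.26). Of 6 U7 partners 4 were higher, with the histone stem-loop binding protein gene SLBP at 0.20 (SE 0.17) and the cleavage factor CPSF2 at 0.33 (SE 0.35). At an unadjusted limma p under 0.05, PRMT5 was the only gene of these 5 lists. With the replicate block NCBP1, SLBP and CPSF2 joined it, all higher, and none passed there after adjustment, where 8.25% of all genes had such an unadjusted p.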

How the data were processed

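RNA of 6 cell samples was measured on 1 Affymetrix array each. The authors deposited log2 signals, 1 per probe set, and the submitters' processing notes name RMA. Its version and the chip definition are not given there. RMA makes the arrays' distributions alike, which would hide a shift common to most genes. Array medians lay between 5.29 and 5.32.

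The 49372 probe sets comprised 79 controls, 44988 with a single symbol, 1832 with several and 2473 without one. Gene identifiers in RefSeq were matched for 44961, changing 0 symbols. For each gene the brightest probe set with a single symbol was used, for SMN1 the brightest shared with SMN2. The groups were compared by limma 3.58.1 (lmFit, eBayes; R 4.3.3). P-values were adjusted over all 18133 genes by Benjamini-Hochberg and called under 0.05, and the script was tested on simulated data. On each array, the 95th percentile over 333 olfactory receptor genes served as background.

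Replicates are numbered 1 to 3 in each group. Same-numbered arrays deviated together from their group means (r across genes 0.82, 0.72 and 0.79, where 0.1 was the minimum), which meets the rule for pairing, though no label states one. The pairs enter only the fit with the replicate block, and all other SEs and adjusted p-values come from the planned fit without it. With the replicate block 0 genes were called and 1496 had an unadjusted p under 0.05, against 149.

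The members and lists were chosen with earlier results of these data known. Named with full statistics were the 4 substrates and the 3 members with the smallest p in each direction. Outside that rule, SMNDC1 was given in full for its difference, the largest among the higher members. Members whose probe sets differ in sign were named too, and up to 2 genes per partner list. Other members were given by role, and the examples by replicate number, SNRPA1 and GEMIN4 among them, were chosen after their values were seen. Alternatives were another normalization, other probe set rules, filters on dim genes, another variance model, array weights, the replicate block and each array left out. Motifs were matched in RefSeq windows of GRCh38.p14.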

Additional observations from a re-analysis of the deposited data

How the results depend on the processing

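No member was called under any setting run, and limma called 0 genes under each; the cause of the turns in direction below was not tested. PRMT5 stayed lower in all settings, from -0.68 to -1.19 with 1 array left out and at -0.75 with array weights. The replicate block (a paired fit) keeps every difference, changed no call and raised the members at an unadjusted p under 0.05 from 0 to 2. Without PRMT5_down replicate 2 there were also 2, and under the other settings 0. The median of the members ran from -0.032 to 0.077 with 1 array left out, lowest without PRMT5_down replicate 1 and highest without control replicate 1, and that of the substrates from -0.079 to 0.044. Under the remaining settings these medians stayed within the spread of replicate numbers (SD 0.035 and 0.055). The median of all genes was -0.015 after quantile normalization again and 0.010 with the lowest 50% left out, where SNRPD2P2 dropped out. Of the 39 members, 12 kept their direction in every setting that held them: GEMIN6, GEMIN8, LSM1, LSM12, LSM2, SMNDC1, SNRNP200, SNRNP27, SNRPA, SNRPC, SNRPD2 and SNRPD2P2. The other 27, none called, turned in at least 1. With array weights, GEMIN4 was at 0.16, GEMIN7 at 0.051, LSM10 at 0.079, LSM11 at -0.15, LSM14A at -0.011, LSM14B at -0.099, LSM5 at -0.024, LSM7 at 0.015, SNRNP25 at 0.063, SNRPB2 at -0.034, SNRPE at -0.069 and SNRPG at -0.027. With the mean of probe sets, LSM10 was at 0.052, LSM5 at -0.012, SNRNP35 at 0.15, SNRNP48 at 0.031, SNRPA1 at -0.034 and SNRPD1 at 0.057. With the most variable probe set, LSM14B was at -0.010, SNRPD1 at 0.093 and SNRPF at 0.0033. With quantile normalization again, LSM11 was at -0.0050, SNRNP70 at -0.0033 and SNRPA1 at -0.0094. With 1 array left out, the following ranged across 0: GEMIN2 -0.14 to 0.45, GEMIN4 -0.27 to 0.28, GEMIN5 -0.10 to 0.26, GEMIN7 -0.13 to 0.10, LSM10 -0.26 to 0.22, LSM11 -0.17 to 0.23, LSM14A -0.087 to 0.19, LSM14B -0.10 to 0.12, LSM3 -0.022 to 0.24, LSM4 -0.16 to 0.082, LSM5 -0.080 to 0.13, LSM6 -0.13 to 0.33, LSM7 -0.12 to 0.043, SNRNP25 -0.080 to 0.10, SNRNP35 -0.31 to 0.088, SNRNP40 -0.23 to 0.010, SNRNP48 -0.45 to 0.41, SNRNP70 -0.25 to 0.29, SNRPA1 -0.31 to 0.35, SNRPB -0.10 to 0.078, SNRPB2 -0.080 to 0.21, SNRPD1 -0.16 to 0.14, SNRPD3 -0.085 to 0.16, SNRPE -0.10 to 0.17, SNRPF -0.087 to 0.038, SNRPG -0.043 to 0.16 and SMN1 -0.21 to 0.12. A left-out array also unbalances the replicate numbers.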
